A study of Mus musculus with 6 samples.

Results

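The complement system was followed in liver nuclei through 32 of the 32285 genes in the count matrices. The genes were taken by symbol from a list of components, regulators and receptors, and all 32 were present. No measured value entered the rule, but earlier results of these data were known when the list was chosen. They comprised 7 genes of recognition and the classical pathway (C1qa, C1qb, C1qc, C1ra, C1s1, C2 and C4b), 5 of the lectin pathway (Mbl1, Mbl2, Fcna, Masp1 and Masp2), 4 of the alternative pathway with the shared component (C3, Cfb, Cfd and Cfp) and 7 of the terminal pathway (Hc, C6, C7, C8a, C8b, C8g and C9). The list was completed by 6 regulators (Cfi, C4bp, Cd55, Serping1, Vtn and Clu) and 3 receptors (Cr2, C3ar1 and C5ar1). The livers came from 6 male DIAMOND mice, a cross of 129A1/SvIm and C57BL/6J in which a Western diet of high-fat chow with sugar water leads from fatty liver to hepatocellular carcinoma. Each group held 2 mice, labelled control (Ctrl), pre-tumor (Pre-T) or post-tumor (Post-T). According to the study, Pre-T mice had not yet developed carcinoma and Post-T mice had developed tumors. The Ctrl group ate chow for 40 weeks. The Pre-T group was given the Western diet over the same 40 weeks and the Post-T group over 48 weeks, in all cases from 2 months of age. Post-T mice were therefore also older than both other groups, the groups were kept in separate cages without randomization, and the sample titles call the Post-T tissue tumor while its source is given as liver, so the tumor content of those libraries is not known here.

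Complement is a cascade of plasma proteins in which C1q, mannose-binding lectins or ficolins recognise a surface and activate serine proteases that cleave C4, C2 and C3. The alternative pathway amplifies the cleavage of C3 through factor B, factor D and properdin, and all pathways meet at C5, whose cleavage starts the assembly of C6, C7, C8 and C9 into the membrane attack complex. The liver makes most of the circulating proteins, chiefly in hepatocytes, while macrophages are the textbook source of C1q and properdin and the receptors are carried by leukocytes.

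After the filter of the study on detected genes and mitochondrial counts, 39012 of 41882 nuclei were kept, with 5323 to 7846 nuclei and a median of 1623 to 2805 unique molecular identifiers (UMIs) per nucleus in each library. Clusters named from fixed markers held 11606 hepatocyte, 3455 macrophage and 3275 stellate or fibroblast nuclei over the 6 mice, and no complement gene was used to form or name them. Median depth per hepatocyte nucleus was 4759.5 to 4965.5 UMIs in the Ctrl and Pre-T mice, 1822.5 in Post-T 1 and 9223 in Post-T 2. The stellate class of Post-T 2 held only 57 nuclei with 139724 UMIs in all. Clusters with hepatocyte markers but low depth (5021 nuclei) held 1496 and 1877 nuclei of Ctrl, 23 and 5 of Pre-T, and 2 and 1618 of Post-T. Leaving them out therefore affects the groups unequally, and no hepatocyte test with them counted in is described here. These clusters and a cluster found almost only in Pre-T 2 (2573 nuclei) were left unnamed. So were 2 deep clusters in which fewer than 3 markers of any class were raised, with 826 nuclei of Pre-T 1, 680 of Post-T 1 and none of the other mice. C8a and Masp2 were lower there than in the hepatocyte class of the same mice, with 37.7 and 12.9 CPM of C8a and 72.4 and 20 CPM of Masp2 in Pre-T 1 and Post-T 1. Hepatocyte values below are without these nuclei, and the results of Masp2, C6, C8a and C9 are also given with them. Levels are given as CPM, the UMIs of a gene scaled to the sum of all UMIs of a class in a mouse. They are compared between classes and mice for the same gene, not between genes of different length. CPM are without the normalization factors (TMM) that the edgeR fold changes use. In hepatocytes these factors were 0.90 and 0.96 in Ctrl, 1.18 and 1.14 in Pre-T, and 1.00 and 0.86 in Post-T. The order of groups in CPM can therefore differ from the fold changes.

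Hepatocyte transcripts were present in every class. A list of 15 abundant hepatocyte transcripts, among them Alb and Apoa1, summed to between 18072 and 35740 CPM in hepatocyte nuclei and to between 10794 and 39388 CPM in nuclei of T and NK cells, which do not make these proteins. In Pre-T 2 and Post-T 2 the sum was higher in T and NK nuclei (39388 and 33810 CPM) than in hepatocytes (26116 and 20436 CPM). T and NK nuclei (85 to 432 per mouse) therefore served as the reference for hepatocyte RNA found outside hepatocytes, and a level is read here as that of a class only where it stood at least 2-fold above theirs, in mice with at least 20 nuclei of the class. In every such mouse this held in hepatocytes for C1s1, C6, C8a and Masp1, in stellate nuclei for Masp1, in macrophages for Cfp, in endothelial nuclei for Cd55, in B cell nuclei for Cd55 and Cr2 (5 mice), and in mesothelial nuclei for C2 (3 mice). It held in 5 of 6 mice in hepatocytes for C2, Hc, C4bp, Masp2 and Serping1, in stellate nuclei for C2 and C7, in endothelial nuclei for Masp1, and in macrophages for C1qa, C1qb, C1qc, C6 and C3ar1, and in 4 of 5 mice for Masp1 and Clu in cholangiocytes and C5ar1 in monocytes. For 24 of the 32 genes no class met it in every mouse, including C3, Cfb, Vtn and Clu, whose levels in hepatocytes were close to those in T and NK nuclei. Missing the rule does not show that a class does not make the RNA of a gene.

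**Figure D1:**
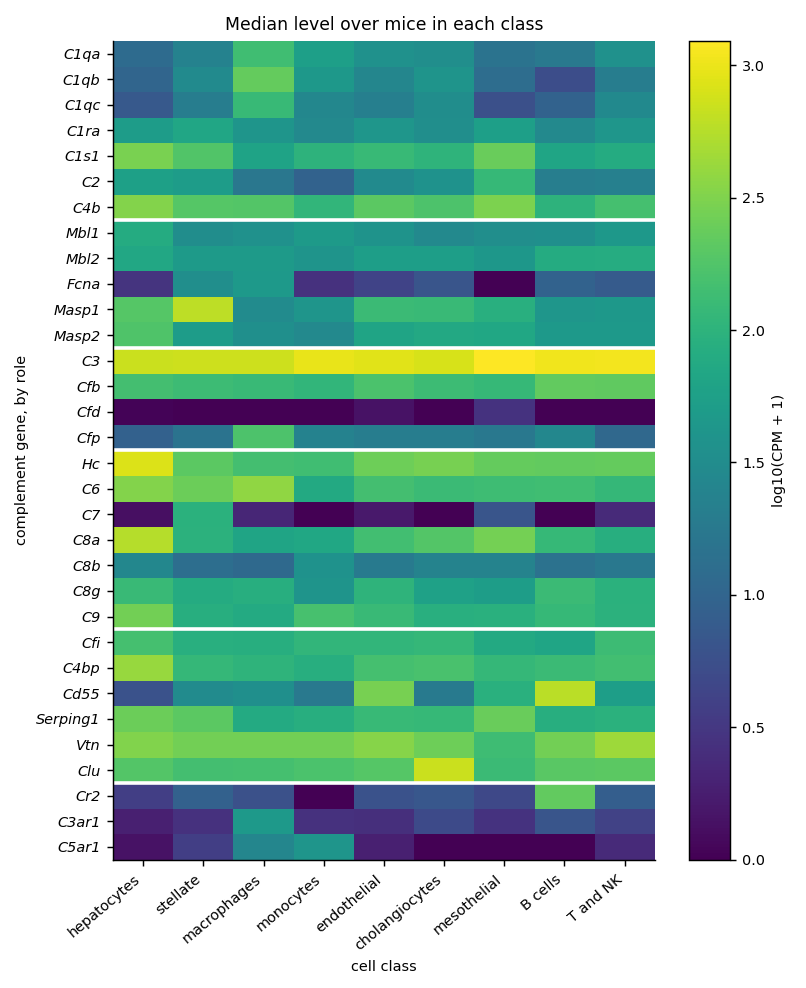
Median level over the mice of each complement gene (rows, grouped by role) in 9 classes of nuclei (columns), drawn as log10(CPM + 1). Cr2 stood out in B cells, Cfp and the C1q genes in macrophages, C7 and Masp1 in stellate nuclei and C8a in hepatocytes, while C3 was at a like level in all classes.

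By the share of all UMIs of a gene in a library, hepatocytes held the largest part of most plasma components. The median over mice was 76.2% for C8a, 69.7% for Masp2, 68.4% for C4bp and 67.9% for Hc, beside 35.4 to 64.3% of the UMIs of all genes. Stellate nuclei, with 0.7 to 12.9% of all UMIs, held a median of 86.8% of those of C7 and 24.7% of those of Masp1. Macrophages, with 1.8 to 13.2% of all UMIs, held 51.6% of those of C3ar1, 44.2% of C1qb and 35.0% of Cfp. The highest class stood apart from every other class in all mice for 3 genes only, namely Cfp, Cr2 and C2. The lowest macrophage level of Cfp was 87.5 CPM and its highest level elsewhere 75.1, the corresponding values for Cr2 in B cells were 190.5 and 19.0, and those for C2 in mesothelial nuclei, measured in the mice with enough of them, were 117 and 97.1.

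Changes between groups were tested on UMIs summed per mouse and class with edgeR's quasi-likelihood test over all genes of a class, and a gene was called at a Benjamini-Hochberg adjusted p under 0.05. With 2 mice in a group, p-values measure the spread between these mice only. In all kept nuclei 32 complement genes were tested. Of these, none was called in Pre-T against Ctrl, where 0% of 21790 genes were called (14 complement genes and 19.7% of all genes had an unadjusted p under 0.05, and DESeq2 called 10 and 9.72%). One gene, C6, was called lower in Post-T against Ctrl, beside 2.22% of all genes, and none in Post-T against Pre-T, beside 0% (7 and 24.4% at an unadjusted p under 0.05, 3 and 13.1% by DESeq2). The median log2 fold change of the 32 genes was −0.19, −0.31 and −0.20 in the 3 comparisons, and that of all genes −0.01, 0.00 and −0.07.

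In hepatocytes, none of the 32 genes was called in Pre-T against Ctrl, beside 0.0324% of 18512 genes (12 complement genes and 15.1% of all genes at an unadjusted p under 0.05, 5 and 4.9% by DESeq2). In Post-T against Ctrl, 1 was called, Masp2, beside 3.92%, and none was called in Post-T against Pre-T, beside 1.2% (6 and 23.6% at an unadjusted p under 0.05, 3 and 11.9% by DESeq2). In macrophages, 30 genes passed the count minimum, and 0, 1 and 0 were called in Pre-T versus Ctrl (1.35% of 15061 genes), Post-T versus Ctrl (2.05%) and Post-T versus Pre-T (0%). The 2 counts of 0 stood beside 12 and 8 complement genes at an unadjusted p under 0.05, where 16.8 and 12% of all genes were, and 3 and 1 called by DESeq2, which called 4.1 and 0.983% of all. In stellate nuclei, 31 genes passed, 6 were called in Pre-T against Ctrl beside 3.43% of 16014 genes and 4 in Post-T against Ctrl beside 2.82%. None was called there in Post-T against Pre-T, beside 0% (6 and 11.6% at an unadjusted p under 0.05, 0 and 0.624% by DESeq2). Only Cfd and, in macrophages, C7 did not pass the minimum. Outside stellate nuclei at most 1 complement gene was called in a comparison, and none was called in all 3 classes.

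**Figure D2:**
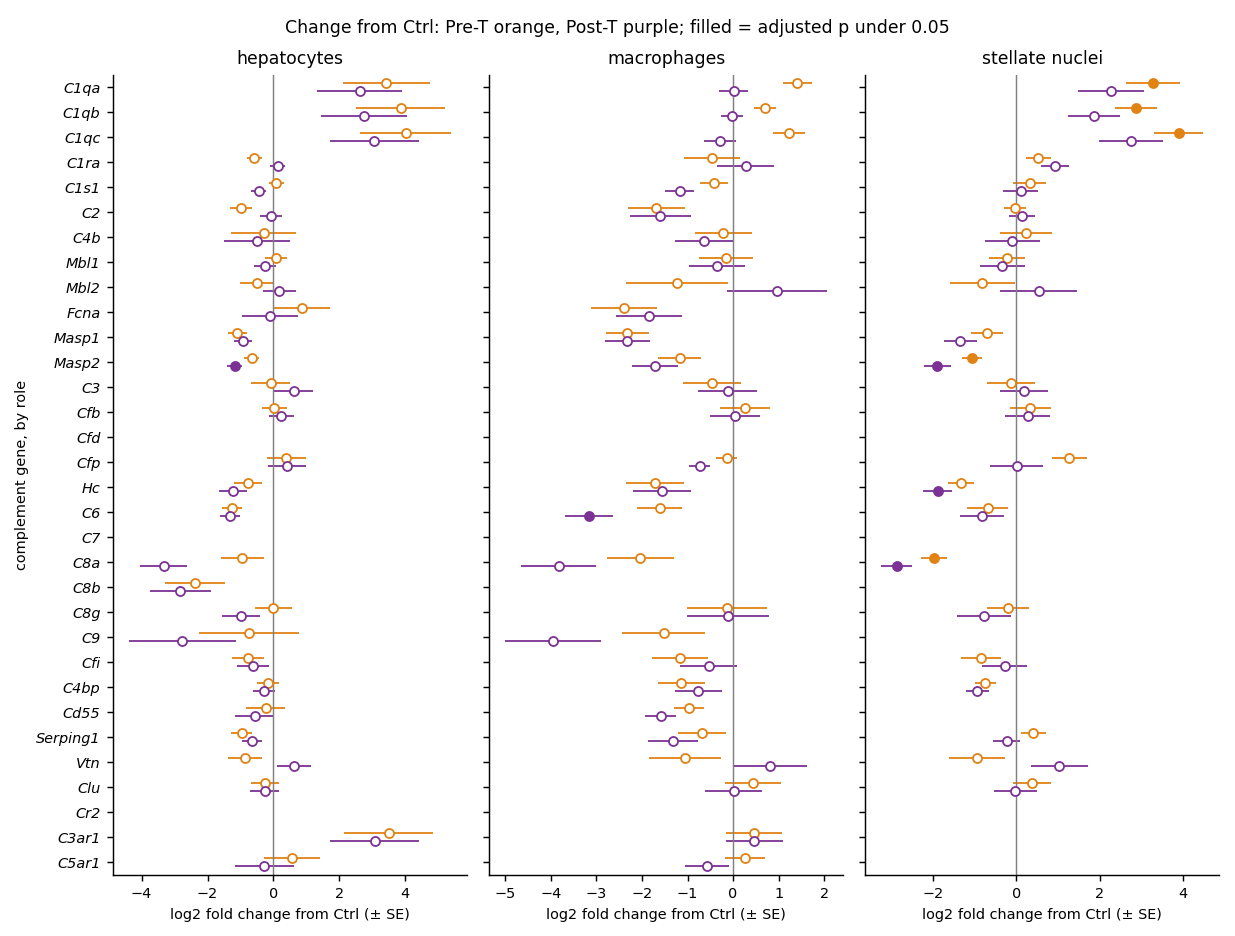
Log2 fold change from Ctrl (edgeR, bars ± SE) of complement genes in hepatocytes, macrophages and stellate nuclei for Pre-T and Post-T mice, without genes that had a mouse at 0 (29, 28 and 23 genes drawn), filled symbols having an adjusted p under 0.05. The drawn genes of the terminal pathway lie mostly below 0 in the 3 classes, and the C1q genes lie above 0 in stellate nuclei. C7 is not drawn in stellate nuclei. In macrophages Hc, C8a and C9 were at 0.17 to 1.11 times the T and NK level. The C1q genes in stellate nuclei were at 0.44 to 1.84 times it, and C8b, C9 and Masp2 there at 0 to 1.47 times it. These were below the 2-fold rule and are not read as levels of the class. Hc and C8a in stellate nuclei met the rule in 1 of 6 mice each and are not read so either.

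Among the recognition genes, the 3 chains of C1q were highest in macrophages in each of the 6 mice. C1qb, which encodes the B chain, was at 202 and 240 CPM in Ctrl macrophages, 385 and 379 in Pre-T and 218 and 170 in Post-T. C1qa was at 107 and 136, then 336 and 345, then 143 and 76.5 CPM in the same order, and C1qc was at 106 and 127, then 299 and 275, then 117 and 53.7 CPM. Both Pre-T mice were thus above the other 4 for each chain, and the Post-T and Ctrl mice overlapped for all 3. In Pre-T 2 the macrophage levels of C1qa and C1qb missed the 2-fold rule, at 1.90 and 1.85 times those of T and NK nuclei. That of C1qc missed it in Post-T 1, at 1.86 times. The Pre-T excess did not pass the test. Its log2 fold change was 1.41 ± 0.32 (SE, n = 2 mice per group) for C1qa with an edgeR adjusted p of 0.084, 0.71 ± 0.24 for C1qb with an adjusted p of 0.207 and 1.22 ± 0.35 for C1qc with an adjusted p of 0.142. With 1 Post-T mouse left out, whose group then rests on a lone mouse assumed to vary like the others, C1qa and C1qc were called, at an adjusted p of 0.00446 and 0.00774 without Post-T 1 and of 0.00357 and 0.00633 without Post-T 2.

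In stellate nuclei the C1q chains were called higher in Pre-T than in Ctrl, with a log2 fold change of 3.29 ± 0.65 for C1qa (edgeR adjusted p = 0.032), 2.88 ± 0.50 for C1qb (adjusted p = 0.018) and 3.90 ± 0.59 for C1qc (adjusted p = 0.012). C1qb was at 10.8 and 7.6 CPM in Ctrl stellate nuclei, 44.7 and 107 in Pre-T and 43.3 and 14.3 in Post-T. The same chain was at 10.6 and 7.3 CPM in Ctrl T and NK nuclei, 64.0 and 204 in Pre-T and 23.5 and 15.6 in Post-T. Both classes were thus highest in Pre-T 2 and lowest in the Ctrl mice. The stellate level was 0.45 to 1.15 times that of T and NK nuclei for C1qa, 0.52 to 1.84 for C1qb and 0.44 to 0.65 for C1qc. It is therefore not read as a level of stellate nuclei. Choosing nuclei by hepatocyte RNA, as done next, does not address RNA from macrophages. With only the stellate nuclei at or below the median of hepatocyte transcripts in their library (1639 of 3275), the log2 fold changes were 3.08, 2.84 and 3.76 for C1qa, C1qb and C1qc, and no chain was called (adjusted p 0.0693 to 0.105), beside 0.0955% of all genes. Without Pre-T 2 none was called either (adjusted p 0.084 to 0.201). C1qa was also not called without Post-T 1 (adjusted p = 0.0531) or Post-T 2 (0.0537).

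The C1q genes lie side by side within 18.675 kb of chromosome 4 (GRCm38). The 250 bases before the RefSeq start of C1qb (chr4:136886201-136886450, minus strand, GRCm38.p6) are shown because the chains moved together, and they hold none of the 4 motifs that were searched on both strands, namely C/EBP (TTGCNNAA), STAT (TTCNNNGAA), IRF (GAAANNGAA) and the 6-base core of the HNF1 motif (GTTAAT).

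C1qb: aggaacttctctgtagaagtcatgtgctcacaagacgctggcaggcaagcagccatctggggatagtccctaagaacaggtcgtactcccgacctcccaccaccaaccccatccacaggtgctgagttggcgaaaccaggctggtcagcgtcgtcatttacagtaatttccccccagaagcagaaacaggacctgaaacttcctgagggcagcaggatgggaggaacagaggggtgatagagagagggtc

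The proteases C1r and C1s, which C1q activates, were measured as C1ra and C1s1, each of which has a near-identical mouse paralog, so the split of reads between the copies is uncertain. C1s1 was highest in hepatocytes in all 6 mice, at 255 and 334 CPM in Ctrl, 410 and 366 in Pre-T and 246 and 187 in Post-T. In CPM, Pre-T lay above Ctrl and Post-T below it. On the normalized scale of the test Pre-T was near Ctrl, and no change was called (log2 fold change 0.08 ± 0.23 for Pre-T with an edgeR adjusted p of 0.891, and −0.44 ± 0.23 for Post-T with an adjusted p of 0.285). C1ra was at 37.5 to 56.7 CPM in hepatocytes and 33.9 to 85.9 CPM in stellate nuclei, with the Ctrl mice lowest in stellate nuclei. C2, the protease partner of C4b, was at 78.2 and 66.2 CPM in Ctrl hepatocytes, 44.4 and 47.6 in Pre-T, and 97.1 and 43.3 in Post-T, so that Pre-T lay below Ctrl and Post-T overlapped it. The end of C2 lies 85 bases before the start of Cfb on the same strand of chromosome 17, so transcripts that run past the end of C2 could be counted for Cfb.

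C4b encodes the fourth component, which has a close paralog in the mouse, C4a. In hepatocytes it was at 406 and 256 CPM in Ctrl, 261 and 416 in Pre-T, and 473 and 33.6 in Post-T. The Post-T mice differed from each other by more than any groups did, with Post-T 1 the highest and Post-T 2 the lowest of the 6. The log2 fold change of Post-T was −0.49 ± 1.00 (edgeR adjusted p = 0.793), and without Post-T 2 it was 0.39.

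Among the lectin pathway genes, Masp1 was raised above T and NK nuclei in both stellate nuclei and hepatocytes of every mouse. It encodes the protease that activates MASP-2, and stellate nuclei were its highest class in each mouse, at 830 and 931 CPM in Ctrl, 606 and 625 in Pre-T and 520 and 186 in Post-T. Hepatocytes had 296 and 286 CPM in Ctrl, 172 and 169 in Pre-T and 203 and 108 in Post-T. Every Western diet mouse lay below both Ctrl mice in both classes. Neither difference passed the test, the log2 fold change in stellate nuclei being −0.70 ± 0.38 in Pre-T (edgeR adjusted p = 0.377) and −1.34 ± 0.40 in Post-T (adjusted p = 0.125), and in hepatocytes −1.09 ± 0.28 in Pre-T (adjusted p = 0.205) and −0.93 ± 0.28 in Post-T (adjusted p = 0.125). Macrophages had 143 and 102 CPM in Ctrl, near the 108 and 58.2 CPM of T and NK nuclei, and 14.4 to 36.5 CPM in the other mice.

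Masp2, the protease that cleaves C4 and C2 after lectin binding, fell in hepatocytes of Post-T mice. Its level was 190 and 255 CPM in Ctrl, 177 and 173 in Pre-T, and 97.7 and 97.6 in Post-T, so the Post-T mice lay below the other 4. The log2 fold change of Post-T against Ctrl was −1.17 ± 0.22 (edgeR adjusted p = 0.0490), beside 3.92% of genes called. It stayed between −1.33 and −1.01 when any 1 mouse was left out, but the adjusted p was then 0.187 to 0.199 without any one of the Ctrl and Pre-T mice and 0.0736 with no count minimum. With the 2 deep unnamed clusters counted in, an alternative added after seeing the data, Masp2 was at 130 and 173 CPM in Pre-T and 70.1 and 97.6 in Post-T, and was not called either (log2 fold change −1.41, adjusted p = 0.103). In stellate nuclei Masp2 was at 84 and 98 CPM in Ctrl, 46 and 54 in Pre-T and 25 and 28.6 in Post-T, called lower in both (log2 fold change −1.06 ± 0.24 with an edgeR adjusted p of 0.0497, and −1.90 ± 0.32 with an adjusted p of 0.019). T and NK nuclei had 103 and 67.9 CPM in Ctrl, 41.3 and 50 in Pre-T and 39.2 and 19.5 in Post-T. The stellate level was 0.64 to 1.47 times theirs in the 6 mice, so it is not read as a level of stellate nuclei. With only stellate nuclei of low hepatocyte RNA neither change was called (log2 fold change −0.75 with an adjusted p of 0.643, and −1.75 with 0.449). The Pre-T value was also not called without Ctrl 1 (adjusted p = 0.0971), Ctrl 2 (0.181), Pre-T 1 (0.347) or Pre-T 2 (0.226), and the Post-T value not without Post-T 1 (0.172). The sequence before its start (chr4:148602294-148602543, plus strand, RefSeq, GRCm38.p6) is given with the 1 match in capitals, a STAT motif 53 bases before the start.

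Masp2: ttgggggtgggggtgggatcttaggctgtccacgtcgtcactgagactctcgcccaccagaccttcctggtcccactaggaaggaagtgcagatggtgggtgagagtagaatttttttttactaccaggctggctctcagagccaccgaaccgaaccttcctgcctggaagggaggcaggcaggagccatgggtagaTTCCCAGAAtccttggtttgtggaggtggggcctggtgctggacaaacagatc

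The other lectin pathway genes are pattern recognition proteins. Mbl1, a mannose-binding lectin, was at 86.1 and 49.9 CPM in Ctrl hepatocytes, 89.6 and 91.3 in Pre-T and 69.7 and 47.0 in Post-T. Mbl2 was at 77.2 and 71.9, then 69.7 and 62.3, then 43.6 and 119 CPM, and in Post-T 2 its level in T and NK nuclei was 312 CPM. Fcna, the ficolin of mouse macrophages, was at 165 and 109 CPM in Ctrl macrophages, 23 and 32 in Pre-T and 10.6 and 58.6 in Post-T. Both Ctrl mice were thus above the 4 Western diet mice for Fcna, with a log2 fold change of −2.39 ± 0.72 in Pre-T (edgeR adjusted p = 0.16) and −1.84 ± 0.72 in Post-T (adjusted p = 0.224).

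C3, cleaved in all pathways, had no class of its own in these nuclei. In hepatocytes it was at 822 and 389 CPM in Ctrl, 480 and 970 in Pre-T, and 1376 and 556 in Post-T, and in T and NK nuclei at 1231 and 475, then 318 and 1590, then 1348 and 962 CPM. The ratio of the hepatocyte to the T and NK level was 0.58 to 1.51, so the levels of C3 could not be assigned to a class. The log2 fold change in hepatocytes was −0.07 ± 0.59 in Pre-T (edgeR adjusted p = 0.965) and 0.61 ± 0.59 in Post-T (adjusted p = 0.558). Without Post-T 1 the latter was −0.02.

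Cfb, which forms the alternative C3 convertase, was at 160 and 106 CPM in Ctrl hepatocytes, 129 and 213 in Pre-T and 196 and 124 in Post-T, with 77.6 to 347 CPM in T and NK nuclei, so the groups overlapped and the class was not resolved. Cfd, the protease that activates factor B and is known as an adipocyte product, was all but absent, at 0 to 1.58 CPM in all kept nuclei. Cfp encodes properdin, which stabilises the convertase, and was at 170 and 183 CPM in Ctrl macrophages, 172 and 168 in Pre-T, and 102 and 87.5 in Post-T. Both Post-T mice were below the other 4, and the change of −0.73 ± 0.23 on the log2 scale was not called (edgeR adjusted p = 0.156).

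**Figure D3:**
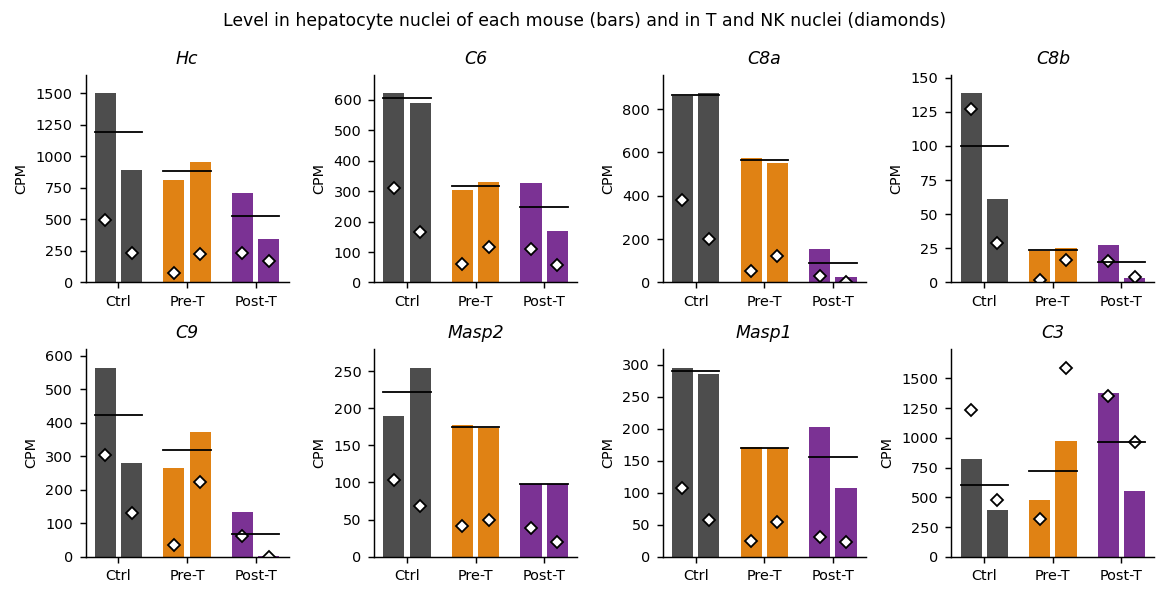
Level (CPM, linear axis from 0) of 8 complement genes in hepatocyte nuclei of each of the 6 mice (bars), with the group mean as a line and the level in T and NK nuclei of the same mouse as a diamond. C8a went from 858 and 872 CPM in Ctrl to 153 and 27.5 in Post-T, Masp2 was lower in both Post-T mice, and for C3 the diamonds stand near or above the bars except in Pre-T 1, where the bar is at 480 CPM and the diamond at 318.

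Of the 6 roles, the terminal pathway had the lowest median change in hepatocytes. There, 6 of its 7 genes lay lower in both Post-T mice than in both Ctrl mice, as did 28.1% of all genes (3.92% were called), and Masp2 was the only complement gene called in this comparison. The median log2 fold change of the 7 was −0.77 in Pre-T and −1.32 in Post-T, where that of all genes was 0.02 and 0.01. The 7 include C7, of which hepatocytes had almost none. In hepatocytes the 2-fold rule over T and NK nuclei was met in all 6 mice for C6 and C8a and in 5 for Hc. It was met in 3 mice for C9, 2 for C8b and 1 for C8g. The count and the medians are therefore not of hepatocyte levels alone. Plasma proteins outside the cascade also had medians below 0 in both comparisons, as given further below. Hc, the mouse gene for C5, was at 1498 and 890 CPM in Ctrl, 812 and 956 in Pre-T, and 707 and 343 in Post-T, with Ctrl and Pre-T overlapping in CPM (log2 fold change in Post-T −1.23 ± 0.43, edgeR adjusted p = 0.155). C8a, the alpha chain of C8, was at 858 and 872 CPM in Ctrl, 573 and 553 in Pre-T, and 153 and 27.5 in Post-T. Its groups did not overlap, and Post-T gave −3.33 ± 0.72 (edgeR adjusted p = 0.064). Without Post-T 1 the value was −4.85 and without Post-T 2 it was −2.61. With the deep unnamed clusters counted in, C8a was at 331 CPM in Pre-T 1 and 104 in Post-T 1, and Post-T gave −3.83 (adjusted p = 0.0507).

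C8b, the beta chain, lies 11.13 kb from C8a on chromosome 4 and was at 138 and 60.9 CPM in Ctrl hepatocytes, 22.9 and 25.3 in Pre-T, and 27.2 and 2.96 in Post-T. All Western diet mice lay below Ctrl, with a log2 fold change of −2.39 ± 0.91 in Pre-T (edgeR adjusted p = 0.305) and −2.83 ± 0.93 in Post-T (adjusted p = 0.141). C8g, the gamma chain, was at 151 and 106, 143 and 179, and 31.2 and 92.8 CPM. C9, which forms the ring of the pore, was at 564 and 280 CPM in Ctrl, 264 and 374 in Pre-T, 135 in Post-T 1 and 0.96 in Post-T 2. Post-T 2 was thus all but without C9, although its hepatocyte nuclei were the deepest of the 6 libraries. The change of C9 in Post-T was −2.76 ± 1.62 (edgeR adjusted p = 0.338), and −1.77 without Post-T 2. With the deep unnamed clusters it was −3.39 (adjusted p = 0.272), with 90.7 CPM of C9 in Post-T 1.

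C6, which binds C5b, was detected in hepatocytes and in macrophages. In hepatocytes it was at 621 and 591 CPM in Ctrl, 304 and 332 in Pre-T, and 326 and 168 in Post-T, so all 4 Western diet mice lay below both Ctrl mice. The log2 fold change was −1.25 ± 0.31 in Pre-T (edgeR adjusted p = 0.195) and −1.32 ± 0.31 in Post-T (adjusted p = 0.0764). In hepatocytes C8a, C6 and Masp2 were called in Post-T against Ctrl without either 1 of the Post-T mice, C8a at an adjusted p of 0.0008 and 0.00515, C6 at 0.00856 and 0.0387 and Masp2 at 0.0303 and 0.0207 without Post-T 1 and Post-T 2 in turn, where 11 and 10 complement genes and 16.2 and 14.0% of all genes were called. With the deep unnamed clusters C6 gave −1.66 in Post-T (adjusted p = 0.0651). In all kept nuclei C6 was at 530 and 512 CPM in Ctrl, 211 and 277 in Pre-T, and 200 and 137 in Post-T, and was called lower in Post-T against Ctrl (log2 fold change −1.51 ± 0.26, edgeR adjusted p = 0.0497). Over all nuclei, fewer nuclei of a type and less RNA per nucleus cannot be told apart. The call was lost without Ctrl 1 (adjusted p = 0.27), Ctrl 2 (0.203), Pre-T 1 (0.0972), Pre-T 2 (0.0948) or Post-T 2 (0.0534), with the log2 fold change between −1.70 and −1.40 with any 1 mouse left out.

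In macrophages C6 was at 886 and 1328 CPM in Ctrl, 382 and 381 in Pre-T, and 55.3 and 160 in Post-T, and the 3 groups did not overlap. The level in T and NK nuclei of the same mice was 309 and 165, then 59.8 and 117, then 110 and 58.4 CPM. Post-T against Ctrl gave −3.17 ± 0.53 on the log2 scale (edgeR adjusted p = 0.036), the only complement gene called in macrophages, beside 2.05% of all genes. The adjusted p rose to 0.279 without Ctrl 1, 0.217 without Ctrl 2, 0.0701 without Pre-T 1 and 0.0735 without Pre-T 2, and to 0.0683 with only the nuclei of low hepatocyte RNA, where the log2 fold change was −3.24. Pre-T against Ctrl gave −1.61 ± 0.50 (adjusted p = 0.173).

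Macrophages of the 3 groups fell into different clusters. One cluster held 99.4 and 98.4% of Ctrl macrophages, another 87.0% of those of Post-T 1 and one more 85.9% of those of Post-T 2, while Pre-T macrophages were spread over 5 clusters, so a change within the class is also a difference between clusters. Clec4f, the lectin that marks resident Kupffer cells, was at 1438 and 1853 CPM in Ctrl macrophages, 469 and 454 in Pre-T, and 12.4 and 34.8 in Post-T (Post-T against Ctrl −5.96 ± 0.55, edgeR adjusted p = 0.016). Over the 14 combinations of cluster and mouse with at least 50 nuclei, C6 was mostly higher where Clec4f was higher. In the Ctrl cluster C6 was at 887 and 1354 CPM and Clec4f at 1437 and 1885. Of the Pre-T clusters, the one with 907 and 854 CPM of Clec4f had 695 and 713 CPM of C6, and the one with 18.0 and 71.1 CPM of Clec4f had 31.6 and 76.2 CPM of C6. The cluster with the highest level of Gpnmb (845 to 1917 CPM), a marker of lipid-associated macrophages, had 12.4 to 61.4 CPM of C6. C1qb did not follow the same order, at 412 and 425 CPM in the Pre-T cluster rich in Clec4f and 343 and 322 CPM in the one poor in it. These points share libraries and clusters, and the part of macrophage make-up in the change of C6 was not tested.

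**Figure D4:**
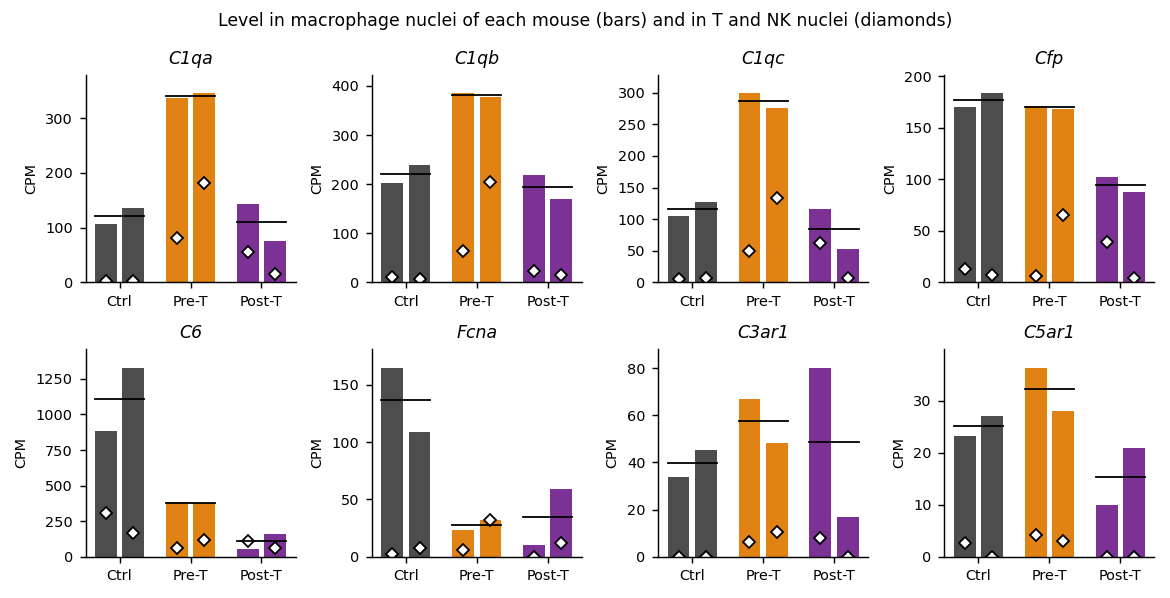
Level (CPM, linear axis from 0) of 8 complement genes in macrophage nuclei of each of the 6 mice (bars), with the group mean as a line and T and NK nuclei of the same mouse as a diamond. The C1q genes are highest in both Pre-T mice, and C6 steps down from 886 and 1328 CPM in Ctrl to 55.3 and 160 in Post-T.

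**Figure D5:**
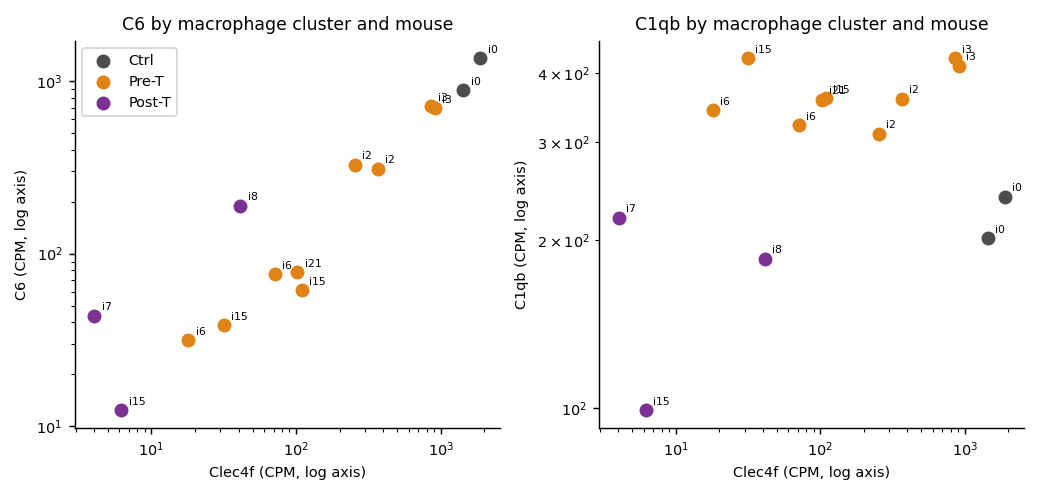
C6 (left) and C1qb (right) against Clec4f, in CPM on log axes, for each macrophage cluster of each mouse with at least 50 nuclei (14 points). C6 is mostly higher where Clec4f is higher, from 12.4 to 1354 CPM, while C1qb stays between 99.3 and 425 CPM.

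In stellate nuclei, genes of the terminal pathway were called lower. Of those called, C8a and Hc stood at least 2-fold above T and NK nuclei in 1 of 6 mice each, and C8b and C9 in none. These calls are therefore not read as changes of stellate nuclei. C8a was at 335 and 341 CPM in Ctrl, 76.5 and 118 in Pre-T, and 58.3 and 28.6 in Post-T, with a log2 fold change of −1.98 ± 0.31 in Pre-T (edgeR adjusted p = 0.013) and −2.87 ± 0.37 in Post-T (adjusted p = 0.0082). C8b was called lower in Pre-T (−2.52 ± 0.53, adjusted p = 0.038). Hc, at 540 and 352 CPM in Ctrl and 118 and 143 in Post-T, was called lower in Post-T (−1.89 ± 0.34, adjusted p = 0.025). C9 was called lower in Post-T as well (−4.14 ± 0.86, adjusted p = 0.038), with 299 and 123 CPM in Ctrl, 16.7 in Post-T 1 and 0 UMIs in Post-T 2. Hepatocytes are the known source of these proteins. T and NK nuclei of the same mice had 380 and 199 CPM of C8a in Ctrl, 51.6 and 121 in Pre-T, and 31.4 and 0 in Post-T, so the level outside hepatocytes was lower in the diet groups in this class too. With only the stellate nuclei of low hepatocyte RNA, none of the 4 was called (adjusted p = 0.262 to 0.552), with log2 fold changes of −1.68 for C8a and −2.51 for C8b in Pre-T and of −2.86 for C8a, −4.64 for C9 and −1.65 for Hc in Post-T. In those nuclei 0.0955 and 0.0136% of all genes were called. Without Post-T 1, the adjusted p was 0.0599 for C8a, 0.265 for C9 and 0.191 for Hc in Post-T, and without Post-T 2 it was 0.148 for C9 and 0.0665 for Hc. In Pre-T, the adjusted p was 0.132 for C8a and 0.224 for C8b without Pre-T 1, 0.0724 and 0.16 without Pre-T 2, and for C8b also 0.071 with Ctrl 1 left out, 0.0569 with Post-T 1 and 0.0572 with Post-T 2 left out.

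C7, which follows C6 in the membrane attack complex, differed from the other terminal genes in its source. Stellate nuclei had 63.6 and 34.9 CPM in Ctrl, 196 and 125 in Pre-T, 355 in Post-T 1 and 0 in Post-T 2, where the class had few nuclei. Hepatocytes were at or below 1.24 CPM in all mice. The 3 Western diet mice with enough stellate nuclei were above both Ctrl mice. The log2 fold change of 1.5 ± 0.82 in Pre-T did not pass the test (edgeR adjusted p = 0.381).

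The sequences before the RefSeq starts of Hc (chr2:35061413-35061662, minus strand), C8a (chr4:104876399-104876648, minus strand) and C6 (chr15:4726960-4727209, plus strand) on GRCm38.p6 are given because these genes were called lower in at least 1 class. Capitals mark the motifs found, an HNF1 core 74 bases before the start of Hc, and in C8a a STAT motif 228 bases and an HNF1 core 107 bases before the start. The C6 window holds none of the 4 motifs. HNF1 is a liver transcription factor, and its core lay in the windows of 9 of the 24 complement genes with an entry (C1ra, C4bp, C7, C8a, C8b, Cfp, Cr2, Hc and Vtn), beside 6.43% of 32851 promoters. C/EBP motifs lay in 3 genes beside 9.56% of promoters, STAT in 3 beside 7.02% and IRF in 1 beside 7.13%. These are matches of letters and no evidence of binding.

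Hc: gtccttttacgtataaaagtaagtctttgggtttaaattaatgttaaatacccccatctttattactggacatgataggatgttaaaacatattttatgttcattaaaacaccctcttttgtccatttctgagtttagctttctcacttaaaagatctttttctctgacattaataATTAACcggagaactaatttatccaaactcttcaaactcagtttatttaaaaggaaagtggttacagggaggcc
C8a: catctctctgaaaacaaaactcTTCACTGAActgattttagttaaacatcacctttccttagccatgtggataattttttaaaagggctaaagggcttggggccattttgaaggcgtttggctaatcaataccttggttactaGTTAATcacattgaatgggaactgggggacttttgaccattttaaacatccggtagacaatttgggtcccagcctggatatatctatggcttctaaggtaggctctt
C6: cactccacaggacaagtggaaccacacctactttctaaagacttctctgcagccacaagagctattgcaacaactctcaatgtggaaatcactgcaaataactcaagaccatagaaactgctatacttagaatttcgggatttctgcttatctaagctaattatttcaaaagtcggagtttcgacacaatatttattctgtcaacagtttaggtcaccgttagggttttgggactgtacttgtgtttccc

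The regulators showed no called change in all kept nuclei, hepatocytes, macrophages or stellate nuclei, and the other classes were not tested. Serping1 encodes the C1 inhibitor and was at 395 and 273 CPM in Ctrl hepatocytes, 198 and 236 in Pre-T and 268 and 166 in Post-T, with both Pre-T mice below Ctrl. In stellate nuclei it met the 2-fold rule over T and NK nuclei in 2 of 6 mice only. Its level there was 210 and 160, then 255 and 306, then 205 and 115 CPM, with both Pre-T mice above Ctrl. The difference of these changes, hepatocytes minus stellate nuclei, was tested with limma on log2(CPM + 1) and was −1.21 ± 0.18 for Serping1 in Pre-T (unadjusted p = 0.000417, adjusted p = 0.627). For none of 31 genes was such a difference called in Pre-T versus Ctrl (0% of 15446 genes), Post-T versus Ctrl (0%) or Post-T versus Pre-T (0%), with 3, 2 and 6 of the 31 at an unadjusted p under 0.05, where 5.08, 17.9 and 14.4% of all genes were. On simulated counts this test recovered only 19.5% of genes changed by 3 on the log2 scale.

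C4bp, which disables C4b, was a hepatocyte transcript at 316 and 428 CPM in Ctrl, 421 and 409 in Pre-T, 425 in Post-T 1 and 198 in Post-T 2, and the groups overlapped. Cfi, the protease that inactivates C3b and C4b, was at 56.1 to 197 CPM in hepatocytes with Post-T 2 the lowest. Vtn, which blocks insertion of the membrane attack complex, was at 401 and 173 CPM in Ctrl hepatocytes, 148 and 251 in Pre-T, and 393 and 489 in Post-T, and at 1091 CPM in T and NK nuclei of Post-T 2, so its class was not resolved. Clu, a chaperone with the same inhibitory role, was highest in cholangiocytes, at 696 and 426 CPM in Ctrl, 823 and 1002 in Pre-T and 612 in Post-T 1 (Post-T 2 had 1 cholangiocyte nucleus). Hepatocytes had 277 and 156, 155 and 301, and 206 and 159 CPM. Cd55, which accelerates decay of the convertases on host cells, was at 595 and 778 CPM in B cell nuclei of Ctrl mice, 690 and 539 in Pre-T and 384 and 318 in Post-T. Endothelial nuclei had 240 and 326, 412 and 410, and 155 and 141 CPM of Cd55, and in both classes the Post-T mice were the lowest of the 6.

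Of the receptors, Cr2, which binds C3 fragments on B cells, was found in 51 of 216 B cell nuclei of Ctrl 1 (23.6%, exact 95% interval 18.1 to 29.8%), 73 of 330 of Ctrl 2 (22.1%, 17.8 to 27.0%), 39 of 104 of Pre-T 1 (37.5%, 28.2 to 47.5%), 27 of 88 of Pre-T 2 (30.7%, 21.3 to 41.4%), 3 of 19 of Post-T 1 (15.8%, 3.38 to 39.6%) and 15 of 89 of Post-T 2 (16.9%, 9.75 to 26.3%). The intervals cover counting error only. Median depth was 1399 UMIs per B cell nucleus and 1330.5 per T or NK nucleus, and the share with a Cr2 UMI among T and NK nuclei was at most 2.06%, with 0 of 85 in Post-T 1, which allows a share of up to 3.53%, and 0 of 154 in Post-T 2, which allows up to 1.95%. Both Pre-T mice lay above and both Post-T mice below the Ctrl mice. The difference from Ctrl was 11.2 percentage points in Pre-T and −6.54 in Post-T, each with an exact two-sided permutation p of 0.33, the smallest that 2 against 2 mice allow. The 4 Western diet mice together differed from Ctrl by 2.34 points (exact permutation p = 0.867), and by −1.76 without Pre-T 1. After thinning to 500 UMIs per nucleus the first 2 differences were 4.21 and −3.33 points.

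C3ar1, the receptor for C3a, was highest in macrophages in all 6 mice, at 34 and 45.3 CPM in Ctrl, 66.8 and 48.1 in Pre-T, and 80.1 and 16.9 in Post-T, where the mice straddled the other groups. C5ar1, the receptor for C5a, was highest in monocytes, at 27.2 and 39.9 CPM in Ctrl, 87.1 and 57.1 in Pre-T and 25.1 in Post-T 1. In macrophages it was at 23.3 and 27.2, then 36.3 and 28.1, then 9.9 and 20.9 CPM. In all kept nuclei C5ar1 was at 1.49 and 0.98 CPM in Ctrl, 8.24 and 8.70 in Pre-T, and 2.27 and 1.29 in Post-T. The Pre-T mice were well above the rest, with a log2 fold change of 2.43 ± 0.42 that did not pass the adjusted test (edgeR adjusted p = 0.0984). Monocytes made up 0.304 and 0.463% of Ctrl nuclei, 5.71 and 3.05% of Pre-T nuclei and 3.83 and 0.0376% of Post-T nuclei. Their share in Post-T 1 was thus above that in Pre-T 2, while C5ar1 over all nuclei was lower there. The part of monocyte number in that value was not tested.

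Of 29 further complement genes (among them integrin subunits of the complement receptors and membrane regulators), 28 were tested in hepatocytes, and 0 were called in Pre-T hepatocytes and 1 in Post-T hepatocytes, Cfhr2, which encodes a plasma protein of the complement system. It was at 326 and 310 CPM in Ctrl, 320 and 345 in Pre-T, and 125 and 128 in Post-T (log2 fold change −1.32 ± 0.23, edgeR adjusted p = 0.041), so it was lower in Post-T mice only. In macrophages Itgax, the alpha subunit of complement receptor 4, rose from 5.4 and 6.8 CPM in Ctrl to 96.2 and 92.3 in Pre-T and 82.0 and 89.4 in Post-T (log2 fold change 3.86 ± 0.36 with an edgeR adjusted p of 0.030, and 3.98 ± 0.36 with an adjusted p of 0.016). Vsig4, the complement receptor of resident Kupffer cells, was at 634 and 885 CPM in Ctrl, 550 and 473 in Pre-T, and 121 and 166 in Post-T, and was called lower in Post-T (−2.22 ± 0.31, adjusted p = 0.025). Susd4, a membrane regulator, was called lower in Pre-T macrophages (−4.03 ± 0.71, adjusted p = 0.047) and in stellate nuclei of both diet groups. In stellate nuclei Cfhr2 was also called lower in Post-T, and Itgax and Itgb2 were called higher in Pre-T. These further genes were not compared with T and NK nuclei, so their stellate calls are not read as changes of that class.

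Other secreted liver proteins were read beside complement. Of 30 plasma proteins outside the cascade, 28 had a log2 fold change below 0 in Pre-T hepatocytes and 25 in Post-T hepatocytes, with medians of −0.88 and −0.79, and 1 was called, Itih2 in Post-T (−1.26 ± 0.23, edgeR adjusted p = 0.047). The complement genes had medians of −0.20 and −0.28 in the same tests, with 19 and 21 of 32 below 0. Of 15 acute phase proteins, 4 were below 0 in each comparison, with medians of 0.91 and 1.15. One was called in Post-T hepatocytes, Hamp, the iron hormone hepcidin, which went from 980 and 2025 CPM in Ctrl to 0.2 and 0.6 in Post-T. The complement medians thus lay between those of the plasma proteins and the acute phase proteins, which was not tested as a difference. The sets are not alike. The 32 include C1qa, C1qb, C1qc, C7, Cfd, Fcna, Cd55, Cr2, C3ar1 and C5ar1. Their hepatocyte levels had a median of 0.01 to 0.36 times those in T and NK nuclei, while the other lists are of liver proteins.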

How the data were processed

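Nuclei of snap-frozen livers were profiled with the 10x Genomics 3' droplet assay. The authors deposited raw UMI counts per gene and barcode, and the submitters' processing notes name Cell Ranger 6.1.1 and mm10. The filter of the study (over 200 and under 5000 genes, under 5% mitochondrial UMIs) was applied. Nuclei were clustered with scanpy 1.11.5 (2000 variable genes, 30 components, Leiden resolution 1, no integration) with the complement genes left out, and a cluster was named from at least 3 raised markers, so classes are rebuilt and may differ from those of the study. No doublet caller was run. For each mouse the UMIs of a class were added up, and genes with at least 10 UMIs were tested with edgeR 4.0.16 (TMM, quasi-likelihood, 3 residual degrees of freedom), with limma 3.58.1 for differences between classes and DESeq2 1.42.0 as an alternative. On simulated counts with 200 genes changed by 3 on the log2 scale, edgeR recovered 85.5% (all nuclei), 89% (hepatocytes), 82.5% (macrophages) and 83% (stellate nuclei) in Post-T against Ctrl. Smaller changes were not simulated, and the simulated spread between mice followed the trend over genes. These shares therefore do not cover smaller changes or genes with a larger spread.

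The members and lists were chosen with earlier results of these data known. Values per mouse are given for members called in any test and for 17 members set by name, and others in part. The choice of T and NK nuclei as the reference for hepatocyte RNA outside hepatocytes, in place of endothelial nuclei, and the prior trend in limma were made after seeing the data. Barcodes shared between 2 libraries were 7 to 21 per pair. Promoter sequences are from RefSeq (GRCm38.p6) and gene positions from GENCODE vM21, and 24 members had a promoter entry. Some results of the further complement genes are not reported here.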

Additional observations from a re-analysis of the deposited data

Results flagged for a closer look

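C1ra, which encodes the protease C1r, was flagged because its change from Ctrl to Pre-T ran in opposite directions in both mice of 2 classes. In stellate nuclei it was 0.53 ± 0.29 on the log2 scale (edgeR adjusted p = 0.376), from 48 and 33.9 CPM in Ctrl to 58.7 and 76.1 in Pre-T. In hepatocytes it was −0.58 ± 0.22 (adjusted p = 0.312), from 52.3 and 48.6 CPM to 37.5 and 47.2. Neither change was called, and the difference tested by limma was −0.97 ± 0.25 (unadjusted p = 0.00684, adjusted p = 0.67). C1ra met the 2-fold rule over T and NK nuclei in 3 of 6 mice in stellate nuclei and in 2 of 6 in hepatocytes. Its levels are therefore not assigned to these classes. The number of mice per group was too small for a check of single outlying mice.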

How the results depend on the processing

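Depth limited the stellate class of Post-T 2 (57 nuclei) and B cells of Post-T 1 (19 nuclei). Complement genes called are given in the order Pre-T versus Ctrl, Post-T versus Ctrl, Post-T versus Pre-T. DESeq2's Wald test called 10, 7 and 3 in all nuclei (9.72, 14.8 and 13.1% of all genes), 5, 6 and 3 in hepatocytes (4.9, 12.4 and 11.9%) and 3, 5 and 1 in macrophages (4.1, 5.06 and 0.983%). Without a count minimum, 14, 13 and 8 were called in macrophages (7.69, 8.99 and 4.25% of all genes), 11, 12 and 4 in stellate nuclei (8.38, 7.16 and 3.19%), and, in Post-T against Ctrl, 3 in all nuclei (3.8%) and 0 in hepatocytes (1.21%). In Post-T against Ctrl, DESeq2 size factors left 0 in all nuclei (2.11%) and 0 in hepatocytes (3.85%), keeping nuclei with 5000 or more genes gave 2 and 2 (3.33 and 4.34%), and clusters at resolution 2 left 0 in hepatocytes (2.62%), 0 in macrophages (0.712%) and 1 in stellate nuclei (1.91%), with 3 there in Pre-T (1.77%). The deep unnamed clusters counted in, chosen after seeing the data, left 0 in hepatocytes (1.72%). Nuclei of low hepatocyte RNA left 0 in macrophages (0.877%) and 0 and 0 in stellate nuclei (0.0955 and 0.0136%). Without the macrophage cluster of low depth, chosen after seeing the data, 1 was called in Pre-T macrophages (2.45%). The cause was not tested.

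Leaving out 1 mouse at a time gave 0 to 10, 0 to 8 and 0 to 6 calls in all nuclei, 0 to 9, 0 to 11 and 0 to 9 in hepatocytes, 0 to 7, 0 to 7 and 0 to 3 in macrophages, 0 to 6, 2 to 5 and 0 to 0 in stellate nuclei, and 0 to 6, 0 to 16 and 0 to 18 for the difference between hepatocytes and stellate nuclei. Of all genes, up to 6.44, 7.68 and 7.88%, 7.36, 16.2 and 18.6%, 9.51, 12.6 and 4.31%, 4.58, 3.67 and 0.86%, and 5.59, 47.6 and 45.7% were called in the same order. The calls in all nuclei, hepatocytes and macrophages and those of the difference fell to 0 without Ctrl 1, Ctrl 2, Pre-T 1 or Pre-T 2, and the highest counts came without Post-T 1 or Post-T 2. In stellate nuclei 0 remained in Pre-T without Pre-T 2. The Cr2 difference was 7.82 to 14.6 points in Pre-T, −7.29 to −5.80 in Post-T and −1.76 to 5.48 in all Western diet mice.

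Replicate numbers were shared between groups, but the correlations of same-numbered mice were −0.17 to 0.13, so they share only a number. With the replicate block, 0 were called in all nuclei (0.00459%) and 0 in hepatocytes (1.16%) in Post-T against Ctrl. Over 54 changes of single genes and 724 alternative values, 704 kept their direction, 56 lost and 54 gained a call.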
